A study of Mus musculus with 4 samples.

Results

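The genes described here are 9 members of the TNF receptor superfamily, followed in RNA sequencing of freshly isolated mouse glomeruli. They were chosen with earlier results of these data known, and read by symbol from the deposited table, which held all 9 among 22809 genes. Poly(A) RNA was sequenced in 4 libraries, 2 from controls labelled WT and 2 labelled as an HDAC knockout restricted to podocytes, epithelial cells whose foot processes cover the glomerular capillaries. The genes named as deleted are Hdac1 and Hdac2, which encode histone deacetylases. All mice were 3 weeks old and had no treatment. Each library pooled 2 mice, and each group came from 2 independent experiments. Neither the strain nor the promoter driving the deletion is given by the labels. The comparison addresses how glomerular transcripts differ between controls and libraries labelled as a podocyte knockout of both enzymes.

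Receptors of this superfamily bind trimeric ligands such as TNF at the cell surface. Some carry a death domain in their cytoplasmic tail, which recruits adaptors such as TRADD and FADD and can lead to caspase activation. Others lack one and bind TRAF proteins directly, which feeds the kinases that release NF-kB. In the kidney the family is known for roles in inflammation and epithelial injury, and soluble TNF receptors in blood are known markers of declining kidney function.

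Levels are given in TPM, which corrects reads for gene length and library size and so can be compared between genes. The libraries held 12876939 to 20943138 reads. Hdac1 was at 19.3, 18.6, 22.9 and 22.5 TPM in control 1, control 2, knockout-labelled 1 and knockout-labelled 2, and Hdac2 at 20.2, 24.1, 23.5 and 20.9 TPM in that order. For neither target transcript did the knockout-labelled libraries both lie below the controls, so every direction given here rests on the labels alone. The deletion is labelled as restricted to podocytes and the libraries are of whole glomeruli, so these totals do not test it. The 10 podocyte markers were detected in all libraries with sums of 647, 1009, 231 and 476 TPM, ordered likewise. Control 1 stood apart, with 10 proximal tubule markers summing to 39422 TPM there and to 3256 to 6522 TPM in the other libraries. The 8 distal and collecting duct markers summed to 2176 to 2558 TPM across all libraries. Mitochondrially encoded genes held 38.7% to 46.5% of the TPM, most in control 2. Of all tested genes, 72.4% were higher in control 2 than in control 1.

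Of the 9 receptor genes, 5 were higher in each knockout-labelled library than in each control, and 0 were lower. These were Tnfrsf12a, Tnfrsf1b, Cd40, Tnfrsf1a and Tnfrsf10b. Over all listed genes, 36.3% were higher in this sense and 13.5% lower. The 9 genes were chosen with earlier results of these data known, so the count of 5 is a description. The differences ranged from 2.14-fold for Tnfrsf10b to 6.13-fold for Tnfrsf1b in mean TPM. Fas, Tnfrsf21, Ltbr and Tnfrsf11b overlapped between the groups.

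**Figure D1:**
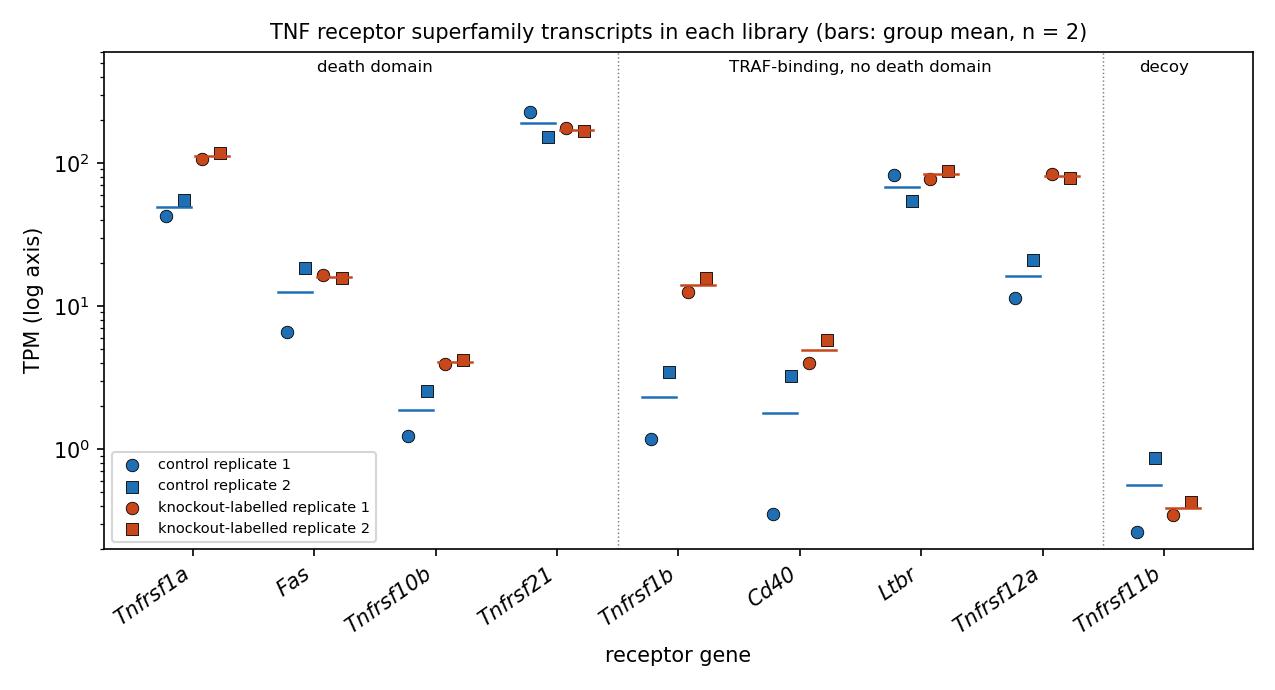
TPM of each receptor gene (log axis) in the 4 libraries, grouped by receptor type, with points for libraries and bars for the group means (n = 2 each). Tnfrsf12a and Tnfrsf1b have the widest gaps between the groups, and the controls of Cd40 lie furthest apart.

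No receptor gene passed an adjusted p below 0.05 by limma on log2(TPM + 1), in a fit of 18612 genes of which 0% were called higher and 0.00537% lower. Tnfrsf11b had a mean below 1 TPM, so 8 receptor genes were tested. At an unadjusted p under 0.05, 3 of the 8 were higher, namely Tnfrsf12a, Tnfrsf1a and Tnfrsf1b, and 0 lower. Over all tested genes 13.4% were higher and 4.46% lower at that threshold. That balance depends on scaling, with 2497 genes higher and 831 lower as deposited and 1775 and 1338 after median-ratio scaling, which brings the typical gene to 1 level in each library. The median log2 fold change of all tested genes was 0.17 as deposited and -0.03 after that scaling, and values called relative are taken against the former. By voom on reads recovered from the TPM values, 0 receptor genes were called and 5 of 8 had an unadjusted p under 0.05, beside 2546 genes higher and 970 lower of 18110.

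Tnfrsf12a encodes Fn14, the small TRAF-binding receptor for the cytokine TWEAK. It lies on the minus strand of chromosome 17 (23675445 to 23677468 in GRCm38, the build of all coordinates here). It was at 11.4 and 21.1 TPM in controls 1 and 2, compared with 83.9 and 78.9 TPM in knockout-labelled replicates 1 and 2. The knockout-labelled libraries were close to each other, and the lower of them was 3.74-fold above the higher control. The read numbers behind these values were 148 and 218 in the controls, with 1161 and 1275 in the knockout-labelled pair. Group means were 16.3 ± 6.83 and 81.4 ± 3.56 TPM (SD, n = 2 each), a 5.0-fold difference. On the log2 scale the difference was 2.31 (SE 0.30, limma adjusted p = 0.0928), or 2.15 relative to all tested genes. This was the smallest p of the 8 receptor genes, and the value lay between 1.90 and 2.73 over 14 settings.

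Tnfrsf1b encodes TNFR2, the TNF receptor without a death domain, best known from leukocytes and endothelial cells. It lies on the minus strand of chromosome 4 (145213463 to 145246870). Its level was 1.17 and 3.43 TPM in controls 1 and 2, compared with 12.5 and 15.7 TPM in knockout-labelled replicates 1 and 2, from 30, 70, 342 and 501 reads. The lower knockout-labelled library was 3.65-fold above the higher control, although the controls themselves differed 2.92-fold. Group means were 2.30 ± 1.59 and 14.1 ± 2.25 TPM (SD, n = 2 each). The log2 difference was 2.27 (SE 0.40, limma adjusted p = 0.106), or 2.11 relative to all tested genes. Its 6.13-fold difference in mean TPM was the largest of the 9 genes.

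The sequence before the start of these 2 genes is shown because they had the largest differences, beside that of Tnfrsf21, whose groups overlapped. The windows are from RefSeq on GRCm38.p6, which held an entry for 6 of the 9 genes. They run 5′ to 3′ on the gene's strand over the 250 bases before the start, ending before any base that GENCODE M21 gives as exon. Capitals mark the GC box, GGGCGG on either strand, a motif known to bind Sp-family factors. The positions are chr17:23677469-23677699 (minus strand) for Tnfrsf12a, chr4:145246871-145247120 (minus strand) for Tnfrsf1b and chr17:43016305-43016554 (plus strand) for Tnfrsf21.
Tnfrsf12a: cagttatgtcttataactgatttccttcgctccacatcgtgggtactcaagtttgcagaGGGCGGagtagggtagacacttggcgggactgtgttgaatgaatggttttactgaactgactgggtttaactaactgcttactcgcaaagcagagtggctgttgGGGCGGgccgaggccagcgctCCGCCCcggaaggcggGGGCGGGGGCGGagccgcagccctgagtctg
Tnfrsf1b: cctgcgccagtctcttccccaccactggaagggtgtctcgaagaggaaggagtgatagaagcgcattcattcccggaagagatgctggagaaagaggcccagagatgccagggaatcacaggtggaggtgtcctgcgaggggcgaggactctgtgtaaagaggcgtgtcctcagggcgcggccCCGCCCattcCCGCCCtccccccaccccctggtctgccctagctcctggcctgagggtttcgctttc
Tnfrsf21: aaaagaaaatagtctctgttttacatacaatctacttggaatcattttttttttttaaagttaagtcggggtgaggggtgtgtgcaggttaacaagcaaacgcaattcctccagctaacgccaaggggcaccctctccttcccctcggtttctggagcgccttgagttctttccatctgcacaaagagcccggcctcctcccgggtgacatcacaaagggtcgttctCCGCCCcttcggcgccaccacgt
The 231-base window of Tnfrsf12a held 5 GC boxes, where 1.36% of 32851 RefSeq windows of that length held at least 5. The window of Tnfrsf1b held 2 and that of Tnfrsf21 held 1, and 32.7% of all windows of 250 bases held at least 1. Also searched on both strands were the AP-1 motif TGANTCA, in 6.75% of all 250-base windows, and the kappaB consensus, in 7.25%. Neither had a match in the 3 windows shown. Among the windows not shown, that of Fas held 1 AP-1 match and 1 GC box. That of Ltbr held 0 AP-1 matches and 2 GC boxes, as many GC boxes as that of Tnfrsf1b. The groups overlapped for both Fas and Ltbr. Ending before the exon bases left 0 bases of the Tnfrsf1a window, so it was not searched. A match describes these letters and does not show a bound site.

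Cd40 encodes the receptor for CD40 ligand, which acts in B cells, macrophages and dendritic cells. It lies on the plus strand of chromosome 2 (165055627 to 165072948). Its level was 0.351 and 3.24 TPM in controls 1 and 2, compared with 4.02 and 5.76 TPM in knockout-labelled replicates 1 and 2. The controls were 9.23-fold apart, on 8 and 59 reads, and the lower knockout-labelled library was 1.24-fold above the higher control. Group means were 1.80 ± 2.04 and 4.89 ± 1.23 TPM (SD, n = 2 each). The log2 difference of 1.28 (SE 0.59, limma adjusted p = 0.337) hung on the control used. It was 0.46 without control replicate 1 (limma adjusted p = 0.480) and 2.11 without control replicate 2 (limma adjusted p = 0.0314).

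Ltbr encodes the lymphotoxin beta receptor, which signals through TRAF proteins to the NF-kB form made from Nfkb2. It lies on the minus strand of chromosome 6 (125306571 to 125313885). Its level was 81.7 and 53.8 TPM in controls 1 and 2, compared with 77.5 and 88.3 TPM in knockout-labelled replicates 1 and 2. Control 1 lay between the knockout-labelled libraries, so the groups overlapped. Group means were 67.7 ± 19.7 and 82.9 ± 7.66 TPM (SD, n = 2 each). The log2 difference was 0.32 (SE 0.24, limma adjusted p = 0.558), or 0.15 relative to all tested genes and 0.08 after median-ratio scaling. Without control replicate 1 it was 0.61 and without control replicate 2 it was 0.02.

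Among the death domain receptors, Tnfrsf1a encodes TNFR1, the widely expressed receptor through which TNF signals to both NF-kB and cell death. It lies on the plus strand of chromosome 6 (125349362 to 125362484). It was at 42.6 and 55.3 TPM in controls 1 and 2, compared with 106 and 117 TPM in knockout-labelled replicates 1 and 2. The controls were 1.3-fold apart, the closest pair of controls among the 9 genes, and the lower knockout-labelled library was 1.91-fold above the higher control. Group means were 49.0 ± 8.95 and 111 ± 8.08 TPM (SD, n = 2 each), from 739 to 2535 reads per library. The log2 difference was 1.18 (SE 0.19, limma adjusted p = 0.104), or 1.01 relative to all tested genes. It ranged from 0.95 to 1.36 over 14 settings.

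Tnfrsf10b encodes a mouse receptor for TRAIL, a ligand that triggers apoptosis, and lies on the plus strand of chromosome 14 (69767472 to 69784411). It was at 1.23 and 2.54 TPM in controls 1 and 2, compared with 3.92 and 4.17 TPM in knockout-labelled replicates 1 and 2, from 45, 74, 153 and 190 reads. All 4 levels were low, and the lower knockout-labelled library was 1.54-fold above the higher control. Group means were 1.89 ± 0.923 and 4.04 ± 0.175 TPM (SD, n = 2 each). The log2 difference was 0.84 (SE 0.34, limma adjusted p = 0.289), and 0.51 without control replicate 1. The pseudocount understates the difference of a gene at so few TPM, and with 0.1 in place of 1 it was 1.14. That setting also gave 2.00 for Cd40, and 2.73 for Tnfrsf1b against 2.38 for Tnfrsf12a.

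Fas encodes the receptor for Fas ligand and lies on the plus strand of chromosome 19 (34290666 to 34327772). It was at 6.52 and 18.3 TPM in controls 1 and 2, compared with 16.3 and 15.8 TPM in knockout-labelled replicates 1 and 2. Control 2 was above both knockout-labelled libraries and control 1 below both. Group means were 12.4 ± 8.34 and 16.0 ± 0.391 TPM (SD, n = 2 each). The log2 difference of 0.50 (SE 0.45, limma adjusted p = 0.628) became -0.18 without control replicate 1 and 1.18 without control replicate 2 (limma adjusted p = 0.0312). The direction for Fas thus differed with the control used.

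Tnfrsf21 encodes death receptor 6, known from neurons and T cells, and lies on the plus strand of chromosome 17 (43016555 to 43089189). It was the most abundant of the 9 transcripts in both groups, at 227 and 152 TPM in controls 1 and 2, compared with 175 and 166 TPM in knockout-labelled replicates 1 and 2. Both knockout-labelled values lay between the controls. Group means were 189 ± 53.1 and 171 ± 6.05 TPM (SD, n = 2 each). The log2 difference was -0.12 (SE 0.23, limma adjusted p = 0.834), with -0.41 without control replicate 2 and 0.17 without control replicate 1.

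Tnfrsf11b encodes osteoprotegerin, a secreted decoy that binds RANKL and TRAIL, and lies on the minus strand of chromosome 15 (54250619 to 54278484). It had 5 and 13 reads in controls 1 and 2 and 7 and 10 in knockout-labelled replicates 1 and 2, or 0.265, 0.863, 0.347 and 0.424 TPM. The knockout-labelled values lay between the controls, and a difference was not detectable at this depth.

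**Figure D2:**
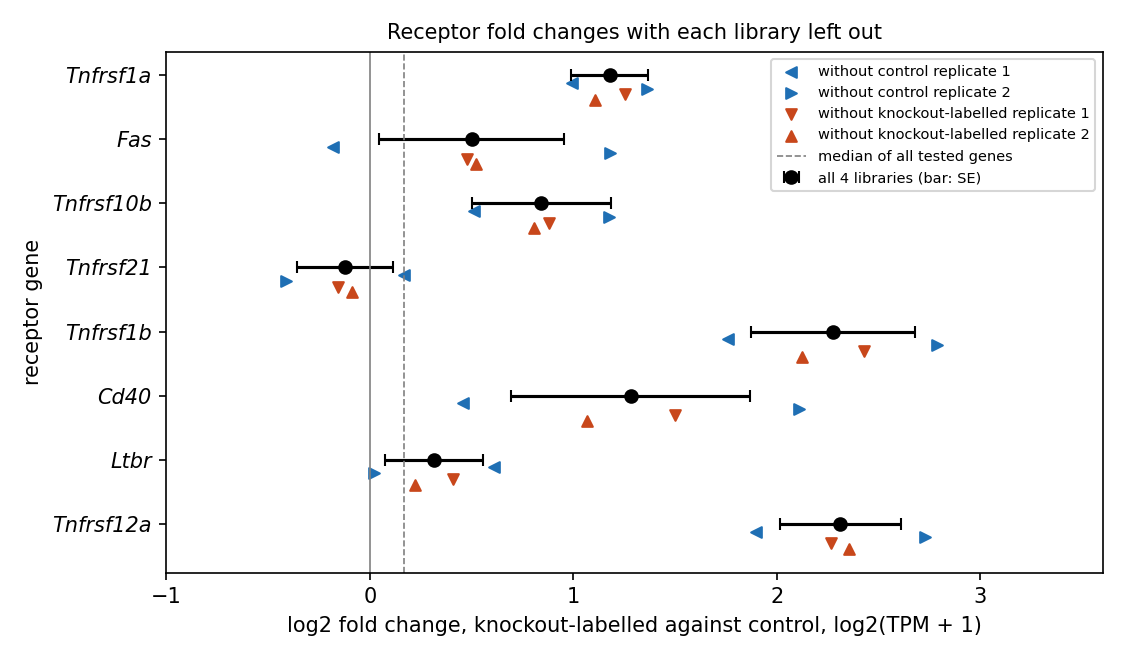
Log2 fold change of the 8 tested receptor genes on the log2(TPM + 1) scale, with the SE from all 4 libraries (black) and the value with each library left out (triangles). Leaving out either control moved Fas and Cd40 most, while Tnfrsf12a, Tnfrsf1b and Tnfrsf1a remained at 0.99 or above.

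The choice of control mattered for the calls. Without control replicate 2, limma called 5 of the 8 receptor genes higher, where 9.04% of 18448 genes were called higher and 3.01% lower. The limma adjusted p was then 0.00676 for Tnfrsf12a, 0.0121 for Tnfrsf1b, 0.0178 for Tnfrsf1a, 0.0312 for Fas and 0.0314 for Cd40. Without control replicate 1, limma called 0 receptor genes, and 4 of 8 had an unadjusted p under 0.05, beside 2253 genes higher and 1275 lower of 18872. The log2 differences were then 1.90 for Tnfrsf12a, 1.76 for Tnfrsf1b and 0.99 for Tnfrsf1a. The median of the 8 receptor genes was 1.01 with both controls, 0.56 without control replicate 1 and 1.27 without control replicate 2, where that of all tested genes was 0.04 and 0.33. In both fits the lone control is assumed to vary like the knockout-labelled libraries. Without control replicate 2, limma also called the pathway genes described here with the 4 smallest p of each list, except Casp8 and Relt. Control 2 was above control 1 for 6 of the 8 tested receptor genes, the exceptions being Tnfrsf21 and Ltbr. The same held for 72.4% of all tested genes.

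In the controls the order by mean level began with Tnfrsf21 (189 TPM), followed by Ltbr (67.7 TPM) and Tnfrsf1a (49.0 TPM), whose ranges overlapped. Tnfrsf12a and Fas also overlapped, as did each pair of neighbours in the order Tnfrsf1b, Tnfrsf10b, Cd40 and Tnfrsf11b. In the knockout-labelled libraries Tnfrsf21 (171 TPM) was followed by Tnfrsf1a (111 TPM). Ltbr and Tnfrsf12a came next with overlapping ranges, then Fas and Tnfrsf1b without overlap, then Cd40 and Tnfrsf10b with overlap, and Tnfrsf11b last. The mean level of Tnfrsf12a exceeded 69.6% of tested genes in the control group, against 94.9% in the knockout-labelled group, and that of Tnfrsf1b 20.5% and 61.9%.

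Marker sums of macrophages, lymphocytes and parietal epithelial cells were also higher in each knockout-labelled library than in each control. The 9 macrophage markers, none at 0 in any library, summed to 59.7, 141, 715 and 774 TPM in control 1, control 2, knockout-labelled 1 and knockout-labelled 2. In that order the pan-leukocyte gene Ptprc was at 0.955, 3.74, 6.19 and 8.19 TPM. The 7 T cell markers summed to 2.51, 6.51, 9.74 and 13.0 TPM, with Cd3e, Cd3d and Cd3g at 0 in control 1. For 4 B cell markers the sums were 1.0, 1.23, 3.90 and 3.37 TPM, with Ms4a1 at 0 in control 1. The 8 parietal epithelial markers, of the cells lining Bowman's capsule, summed to 174, 224, 787 and 586 TPM, and 9 endothelial markers to 314, 676, 246 and 508 TPM. In bulk glomeruli, fewer cells of a type and less RNA per cell cannot be told apart. The part of these cells in the receptor values was not tested.

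The genes whose pattern over the 4 libraries was most like that of Tnfrsf12a were Tmem173, H2-K1 and Cebpd. Likeness was the Euclidean distance between log2(TPM + 1) values, each centred on the gene's own mean. Tmem173, which encodes the adaptor STING, was at 1.64 and 3.96 TPM in the controls, compared with 17.7 and 17.5 TPM in the knockout-labelled pair (distance 0.0949). H2-K1, an MHC class I gene whose near-identical relatives can share its reads, was at 88.2, 160, 561 and 537 TPM in the same order (distance 0.117). Cebpd, a transcription factor of the acute-phase response, was at 2.03, 4.69, 21.3 and 17.8 TPM (distance 0.123). Of the other receptor genes Tnfrsf1b was closest, at a distance of 0.313 and rank 25.

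The ligands of these receptors were mostly at low levels. Of 13 ligand genes listed, 6 reached a mean of 1 TPM and 0 passed the adjusted threshold. Of the 13, 10 were higher in each knockout-labelled library than in each control and 0 lower, beside 36.3% and 13.5% of all listed genes. Some rest on few reads, such as Tnfsf18 with 0 in each control and 6 and 2 in knockout-labelled replicates 1 and 2. Tnf, the ligand of TNFR1 and TNFR2, had 0 reads in control 1, which allows up to 0.274 TPM at 3 reads, and was at 1.83 TPM in control 2 and 5.54 and 4.81 TPM in the knockout-labelled pair (limma adjusted p = 0.175). Ltb, which pairs with lymphotoxin alpha to bind LTBR, had 0 reads in control 1, which allows up to 0.296 TPM, and 1.23, 2.95 and 3.23 TPM in the others. Tnf and Ltb reached a mean of 1 TPM through their knockout-labelled values. Tnfsf10, which encodes TRAIL, was at 6.90 and 13.3 TPM in the controls, compared with 30.3 and 25.0 TPM in the knockout-labelled pair (log2 difference 1.42, SE 0.33, limma adjusted p = 0.128). Tnfsf12, which encodes TWEAK, the ligand of Fn14, was at 5.43, 12.1, 13.7 and 16.9 TPM in control 1, control 2 and the knockout-labelled pair. Its value is uncertain, because 48.3% of its exon bases are shared with the overlapping gene Tnfsfm13. Tnfsf13, also among the 10, shares 60% of its exon bases with Tnfsfm13 and an antisense gene. Fasl, Cd40lg, Tnfsf11, Tnfsf4 and Cd70 had no row matched by symbol, so they were not analysed here.

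Among 17 other receptors of the superfamily listed, 10 were higher in each knockout-labelled library and 2 lower, beside the same 36.3% and 13.5%, and 0 of the 13 tested passed. Tnfrsf14, the receptor HVEM, was at 3.53 and 12.0 TPM in the controls, compared with 23.6 and 29.0 TPM in the knockout-labelled pair (log2 difference 1.83, SE 0.50, limma adjusted p = 0.165). The difference was 1.07 without control replicate 1 and 2.58 without control replicate 2 (limma adjusted p = 0.0111). Tnfrsf9, the T cell costimulator 4-1BB, had 0 reads in control 1, which allows up to 0.165 TPM, and was at 0.687 TPM in control 2 and 4.0 and 4.13 TPM in the knockout-labelled pair (limma adjusted p = 0.108). Tnfrsf13b, the B cell receptor TACI, was at 0.158 and 0.198 TPM in the controls, compared with 2.22 and 2.78 TPM in the knockout-labelled pair. Relt was at 0.182, 0.741, 1.66 and 2.95 TPM. Tnfrsf9, Tnfrsf13b and Relt reached a mean of 1 TPM through their knockout-labelled values. Tnfrsf8 and Tnfrsf13c had no row matched by symbol, so they were not analysed here.

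The 16 TRAF adaptors and ubiquitin regulators carry or dampen signals of the superfamily. Of these, 12 were higher in each knockout-labelled library, 0 were lower and 0 passed the adjusted threshold. Among all tested genes 36.7% were higher in this sense and 14.3% lower. The median log2 difference of the list was 0.55, or 0.38 relative to all tested genes, and 0.32 with quantile normalization. Tnfaip3, which encodes A20, an enzyme that dampens NF-kB signalling, was at 1.94 and 7.43 TPM in the controls, compared with 20.5 and 26.3 TPM in the knockout-labelled pair (log2 difference 2.28, SE 0.52). Birc3, which encodes the ubiquitin ligase cIAP2, was at 4.65 and 15.9 TPM in the controls, compared with 44.2 and 45.4 TPM in the knockout-labelled pair (2.23, SE 0.51). On the log2 scale the difference was 1.15 (SE 0.29) for Map3k14, which encodes the kinase NIK, and 0.85 (SE 0.26) for Traf2. Traf4, Traf6, Rbck1 and Sharpin overlapped between the groups.

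The 11 death domain adaptors and effectors had a median log2 difference of 0.39, or 0.22 relative to all tested genes. Of these, 8 were higher in each knockout-labelled library, 0 were lower and 0 passed, beside 36.7% and 14.3% of all tested genes that were higher or lower in this sense. The median was 0.18 after median-ratio scaling. Ripk3, a kinase of necroptosis, was at 1.37 and 2.77 TPM in the controls, compared with 7.01 and 5.89 TPM in the knockout-labelled pair. Mlkl, the membrane effector of necroptosis, was at 1.17 and 6.50 TPM in the controls, compared with 10.1 and 14.5 TPM in the knockout-labelled pair. The log2 difference was 0.54 (SE 0.22) for Casp8, the initiator caspase recruited through FADD. For the adaptors Tradd and Fadd it was 0.39 (SE 0.22) and 0.32 (SE 0.23).

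Of 14 kinases and NF-kB subunits, 12 were higher in each knockout-labelled library, 1 was lower and 0 passed, beside the same 36.7% and 14.3% of all tested genes. Their median log2 difference was 0.57, or 0.40 relative to all tested genes, and 0.35 without control replicate 1. Relb, the subunit of the alternative pathway that LTBR, CD40 and Fn14 feed, was at 1.92 and 6.74 TPM in the controls, compared with 21.0 and 25.0 TPM in the knockout-labelled pair (log2 difference 2.33, SE 0.48, limma adjusted p = 0.114). Its partner Nfkb2 was at 6.26, 18.5, 36.3 and 43.2 TPM in control 1, control 2 and the knockout-labelled pair, but 18.1% of its exon bases are shared with genes on the opposite strand. Rela, the subunit of the classical pathway, was at 15.8, 23.99, 45.8 and 47.9 TPM, and Nfkbia, its inhibitor and target, at 26.8, 52.7, 97.1 and 121 TPM. The gene lower in both was Chuk, which encodes the kinase IKK-alpha, with 71.3, 54.1, 50.3 and 43.8 TPM.

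All 14 response genes listed downstream of NF-kB were higher in each knockout-labelled library than in each control and had an unadjusted p under 0.05 by limma, and 0 passed the adjusted threshold. Of all tested genes, 36.7% were higher in the first sense and 13.4% in the second. The median log2 difference of the list was 3.09, or 2.92 relative to all tested genes. It was 1.82 without control replicate 1 and 4.0 without control replicate 2. The list was drawn up with earlier results of these data known, so its count is a description. Lcn2, which encodes the injury marker lipocalin-2, was at 1.77 and 25.5 TPM in the controls, compared with 562 and 339 TPM in the knockout-labelled pair. Icam1, an adhesion molecule with 11.7% of its exon bases shared with a gene on the opposite strand, was at 4.25, 15.5, 61.6 and 59.8 TPM in the same order. Cxcl16, a chemokine with 18.3% of its exon bases shared in that way, was at 22.4, 32.2, 83.4 and 87.6 TPM (log2 difference 1.63, SE 0.22, limma adjusted p = 0.0945). Ccl20, another chemokine, had 0 reads in control 1, which allows up to 0.316 TPM. It was at 0.790 TPM in control 2 and 18.8 and 5.81 TPM in the knockout-labelled pair. Ccl20 reached a mean of 1 TPM through its knockout-labelled values. In all 14 genes control 2 lay above control 1, as in 72.4% of all tested genes. The size of that gap varied widely. It was 1.44-fold for Cxcl16, 14.4-fold for Lcn2 and 106-fold for the chemokine gene Ccl2, on 1 and 85 reads.

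**Figure D3:**
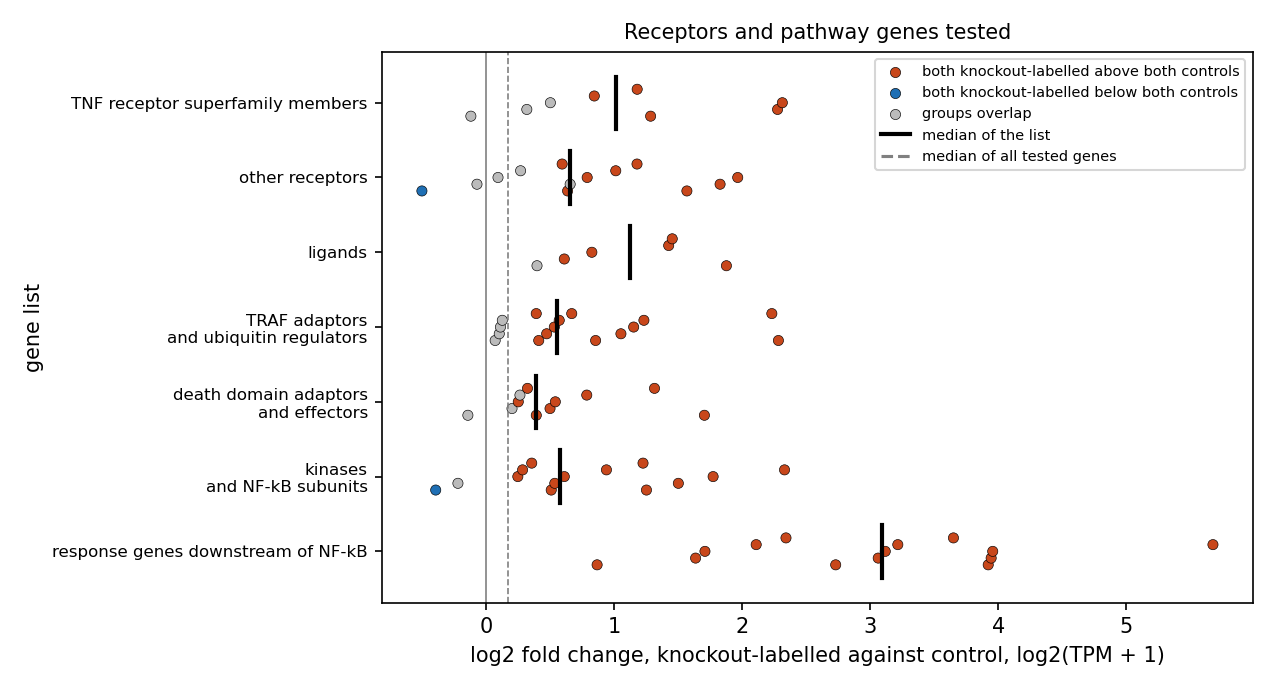
Log2 fold change of each tested gene on the log2(TPM + 1) scale, by list, with the median of each list (black bar) and of all tested genes (dashed line). The 14 response genes have the highest median, 3.09, and the 8 tested receptor genes of the 9 have a median of 1.01. Without control replicate 1 these medians are 1.82 and 0.56.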

How the data were processed

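Glomerular poly(A) RNA was sequenced in 4 libraries, which were grouped by their titles. The authors' deposited values are TPM for 22809 Ensembl genes in 1 table. Per the submitters' processing notes, the tools were DESeq2 1.30.1, featureCounts 2.0.0, STAR 2.7.9 and fastp 0.20 on GRCm38.p6, with no role stated. Which annotation, gene filter and strand setting were used is not stated, and unless strand was used, reads of antisense partners cannot be told apart. The 9 receptor genes share no exon base with another gene in GENCODE M21, an annotation of that build from which the gene coordinates come. Symbols were matched for 22762 genes, of which 22176 matched with the ID version.

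For those 22176 genes (97.2%), TPM times the M21 exon length gave whole multiples of 1 step in each library (100% of values), within a relative tolerance of 1e-06. These multiples are the recovered reads. Limits drawn from read numbers cover counting error only.

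limma 3.58.1 in R 4.3.3 was fitted with trend and no covariate to log2(TPM + 1) of the 18612 genes with a mean of 1 TPM or more, with Benjamini-Hochberg adjustment and a threshold of 0.05. Every log2 difference, SE and adjusted p is from this fit unless another is named. The script was tested on simulated data in which replicates of a group shared the same mean. That test does not cover controls as unlike as those here. Tables were built with pandas 2.3.3 and numpy 2.4.6 in Python 3.11.15, and plots with matplotlib 3.10.9.

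Named were all 9 receptor genes, the 4 genes of each list with the smallest p and the 3 nearest to Tnfrsf12a, except 1 list gene that is not reported here. Tradd, Fadd, Chuk, Ccl2, Traf4, Traf6, Rbck1 and Sharpin were named after their values were seen. The members and lists were chosen with earlier results of these data known. The alternatives were a pseudocount of 0.1 or 5, all genes unfiltered, a minimum mean of 5 TPM, scaling by median ratios, quantile normalization, limma without trend, a replicate block, leaving out each library and, chosen after seeing the data, voom on the recovered reads.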

Additional observations from a re-analysis of the deposited data

How the results depend on the processing

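Limma and voom called 0 receptor genes higher in every setting except 1: with 1 library left out the number ranged from 0 to 5, the 5 being without control replicate 2. None was called lower in any setting. The 8 directions held in all settings except without control replicate 1. With 1 library left out the log2 difference ranged from -0.18 to 1.18 for Fas and from -0.41 to 0.17 for Tnfrsf21. Over all genes, 0 were called higher and 1 lower. With 1 library left out these counts ranged from 0 to 1668 higher and from 0 to 556 lower, the highest of both without control replicate 2, and without knockout-labelled replicate 2 they were 15 and 9. The count called lower was 0 with quantile normalization, limma without trend and voom. The cause was not tested. Of the named genes, 27 gained a call in 1 setting, without control replicate 2, and none had a call to lose. The split at an unadjusted p under 0.05 was 2080 higher and 1657 lower with quantile normalization. Cd40 and Tnfrsf10b have no value under the minimum mean of 5 TPM.

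With the replicate number as a block, 0 genes were called higher, 1 lower and 0 receptor genes. At an unadjusted p under 0.05 there were 5 of 8 receptor genes, beside 2942 genes higher and 990 lower of 18612. The adjusted p of Tnfrsf12a with the block was 0.0618. The labels do not say that a number marks a shared experiment, and deviations of same-numbered libraries correlated at 0.14 across genes.

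Depth limits Tnfrsf11b, at 5 to 13 reads per library, and Cd40, at 8 reads in control 1. The design leaves 2 residual degrees of freedom.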

Other observations

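Several superfamily genes had a mean below 1 TPM and are given as values with no test, in the order control 1, control 2, knockout-labelled 1 and knockout-labelled 2. Tnfsf8, the ligand of CD30, was at 0.0393, 0.246, 0.587 and 0.628 TPM. Tnfsf14, the ligand LIGHT of LTBR and HVEM, was at 0.243, 0.101, 0.529 and 0.971 TPM, and Tnfsf13b, the B cell survival factor BAFF, at 0.196, 0.245, 0.488 and 0.905 TPM. Ngfr, the neurotrophin receptor, was at 0.304, 0.217, 0.730 and 1.77 TPM, and Eda2r, a receptor for ectodysplasin, at 0.0761, 0.571, 0.711 and 1.04 TPM. These 5 were higher in each knockout-labelled library. Tnfrsf17, the plasma cell receptor BCMA, was at 0.367 and 1.61 TPM in the controls, had 0 reads in knockout-labelled 1 and was at 0.147 TPM in knockout-labelled 2. A count of 0 allows up to 0.514 TPM there, which is above control 1. Tnfrsf25, the receptor DR3, had a mean above 1 TPM and was at 4.99, 8.13, 3.62 and 4.88 TPM (log2 difference -0.50, SE 0.32, limma adjusted p = 0.487). These genes were chosen after their values were seen.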
